A study of Mus musculus with 12 samples.

Results

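The 46 genes described here encode core spliceosome proteins outside the U5 small nuclear ribonucleoprotein (snRNP) and the tri-snRNP. Their rows were matched by gene symbol, with the list drawn up when earlier results of these data were known, and all 46 were found among the 24421 rows of the count table. All 46 were also among the 14810 genes kept by the filter on low counts. They fall into 8 role groups, namely 6 proteins of the Sm ring, 7 of the LSm ring, 3 of the U1 snRNP, 12 of the U2 snRNP and branch site recognition, 11 of the Prp19 complex and spliceosome activation, 4 step helicases, 2 second-step factors and 1 protein of the minor spliceosome.

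The spliceosome assembles anew on each intron: the U1 snRNP binds the 5′ splice site, U2AF and the U2 snRNP mark the 3′ splice site and the branch point, and the tri-snRNP of U4, U6 and U5 joins before activation. Sm proteins form a ring on U1, U2, U4 and U5 RNA and LSm proteins a ring on U6 RNA, while the Prp19 complex stabilises the activated particle and DEAH-box helicases drive its rearrangements. Eftud2, a GTPase of the U5 snRNP, acts with the helicase Snrnp200 in activation and disassembly, and in people changes of one copy of its gene cause mandibulofacial dysostosis with microcephaly.

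RNA sequencing was done on 12 libraries from C57Bl/6 mouse embryos of a line in which Eftud2 is altered only in neural crest cells, with 3 libraries in each of 4 groups. The controls were heterozygous (Eftud2+/-) and so also carried 1 altered allele, the mutants were homozygous (Eftud2-/-), and both genotypes were collected, untreated, on embryonic days 9.0 and 9.5 (E9.0, E9.5). The Cre driver, the number of embryos in a library and their somite numbers are not given in the labels, and the tissue is given as neural crest cells in one label, as cranial nerve ganglia in another and as the head in the protocol. Nothing in the labels says that the 3 libraries of a group came from separate embryos, so that p-values measure the spread between these libraries, which may be partly technical.

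Libraries held 13914543 to 31172708 counts, of which the 46 genes took 0.479% to 0.801%. Levels are CPM, counts relative to library sizes scaled by TMM factors, and differences are log2 fold changes with standard errors (SE) from edgeR. A difference was called when its edgeR quasi-likelihood p, adjusted over the 14810 genes by the Benjamini-Hochberg method, was under 0.05. One library stood apart, heterozygous E9.0 replicate 1, in which the row of the 45S ribosomal RNA precursor Rn45s took 37.4% of the counts and whose TMM factor was 0.664, against 0.924 to 1.11 in the other 11 libraries. Eftud2 itself was at 302, 275 and 279 CPM in heterozygous and at 236, 234 and 232 CPM in homozygous libraries of E9.0. At E9.5 it was at 248, 255 and 264 CPM against 226, 221 and 226 CPM. The homozygous libraries were the lower ones at both stages without overlap, and the difference was called at E9.0 (-0.29 ± 0.05, edgeR adjusted p = 0.0193; -0.08 with total counts only, adjusted p = 0.751) but not at E9.5 (-0.19 ± 0.05, edgeR adjusted p = 0.0906). Leaving out heterozygous replicate 1, homozygous replicate 1 or homozygous replicate 3 ended its E9.0 call (-0.25, -0.29 and -0.28; adjusted p = 0.0645, 0.0601 and 0.0713), as did a fit of only the groups compared (-0.28, adjusted p = 0.141). At E9.5 it was called by DESeq2 (-0.19, adjusted p = 0.0134) and after the GC and length correction (-0.20, adjusted p = 0.0182). Neural crest markers (8 genes) summed to 376 to 394 CPM in heterozygous and 313 to 348 CPM in homozygous E9.0 libraries, and neural progenitor markers (6 genes) to 637 to 697 CPM over all E9.0 libraries. At E9.5 the neural crest sums were 227 to 288 CPM and 211 to 260 CPM. Blood and heart markers were present as well, so that the libraries held more than neural crest, and in such mixed tissue fewer cells of a type and less RNA per cell cannot be told apart.

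Per unit of exonic length the most abundant transcript was Snrpf, an Sm ring protein, with a mean of 107 RPKM over the 12 libraries (range 85.1 to 130.4). The large U2AF subunit U2af2, which binds the polypyrimidine tract, followed at 100.3 RPKM, the Sm protein Snrpe at 97.3 RPKM and the LSm protein Lsm4 at 89.1 RPKM. Each of these 4 had a range over libraries that overlapped those of the other 3. By exonic length Snrpf was above Lsm4 within each library, and the rest of their order is not settled by these data. The lowest was Rnpc3, a protein of the U11/U12 snRNP of the minor spliceosome, at 3.08 RPKM (range 2.60 to 3.42), below every other member in each library range. In heterozygous libraries it was at 19.1, 22 and 21.7 CPM at E9.0 and 21.2, 22.6 and 19.1 CPM at E9.5. The homozygous libraries had 21.6, 22.7 and 17.2 CPM and then 19.0, 20.3 and 18.4 CPM, so all 4 groups overlapped. The second-step factor Prpf18 (8.90 RPKM) and the U6 ring protein Lsm8 (10.6 RPKM) came next, and their ranges overlapped. Group medians were 75.8 RPKM for the Sm ring, 24.3 for the LSm ring, 40.0 for the U2 group, 20.9 for the Prp19 group and 23.3 for the step helicases.

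The order at the top depends on the length used. With the longest transcript in place of the union of exons, Snrpe was highest at 199.6 RPKM and Snrpf ranked 9, while Rnpc3 remained last at 4.36 RPKM. In GENCODE M21, 85.4% of the exonic length of Snrpf is overlapped on the opposite strand by Ccdc38 and 4933408J17Rik, and whether counting used strand is not given in the sources used here. Of the exonic length of Rnpc3, 17.0% is overlapped by Amy1 on the same strand. Over 10% of exonic 50-mers occur in another gene for 11 of the 46 genes, among them U2af1 (21.7%), Lsm7 (14.3%) and Snrpg (11.6%), and none do for 8 genes such as Lsm4; how such reads were counted is not given in the sources used here.

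**Figure D1:**
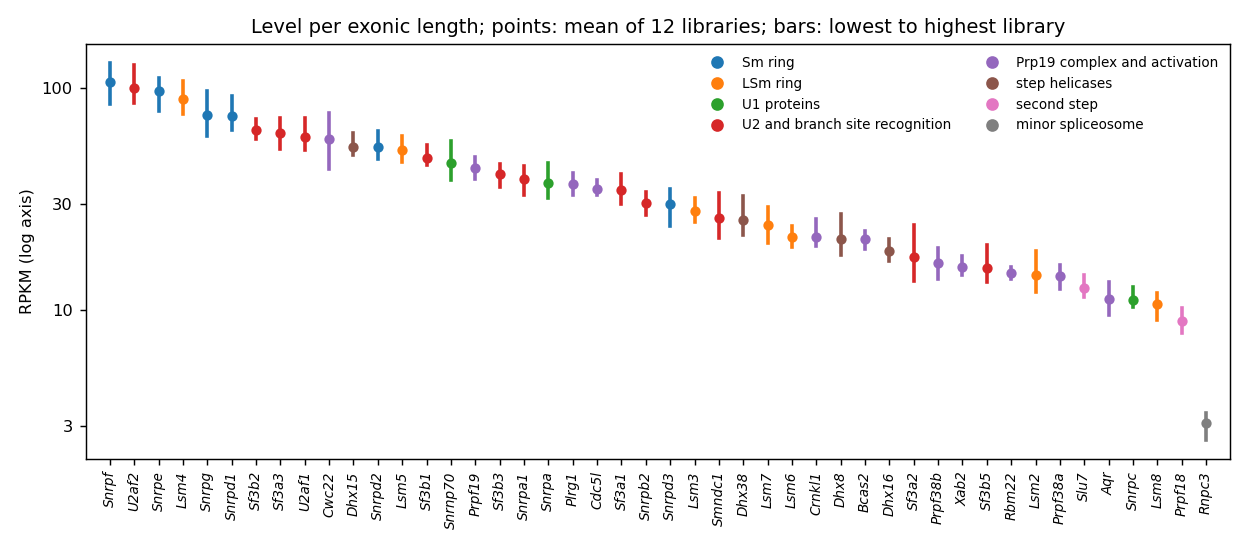
Level per exonic length (RPKM, log axis) of the 46 core spliceosome genes, ordered by mean. Points are means over 12 libraries and bars run from the lowest to the highest library. Snrpf, U2af2, Snrpe and Lsm4 lead, and Rnpc3 stands alone at 3.08 RPKM.

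Between homozygous and heterozygous libraries edgeR called 1 of the 46 genes, Smndc1, at both stages (2.17%, against 0.587% of all genes at E9.0 and 1.89% at E9.5). DESeq2 called 4 at E9.0, Smndc1, Lsm4, U2af1 and Snrpd2. The share of all genes that DESeq2 called is not given here, so this count cannot be set against it. Smndc1 (also known as SPF30) is a Tudor-domain relative of SMN that associates with the U2 snRNP and is needed for the tri-snRNP to join the assembling spliceosome. Its E9.0 levels were 61.4, 59.7 and 59.8 CPM with the heterozygous and 81.4, 83.4 and 82.7 CPM with the homozygous genotype. The E9.5 levels were 54.3, 53.2 and 52.5 CPM against 60.8, 63.5 and 63.5 CPM. Every homozygous library lay above every heterozygous library of its stage, and the gap at E9.0 was many times the spread within either group. Over the 4 groups, however, the SD within groups (0.0261 on the log2 scale) was below that from counting alone (0.0387). It is thus too small a measure for the gap.

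The E9.0 means of Smndc1 were 60.3 ± 0.975 and 82.5 ± 0.997 CPM (SD of 3 libraries each), so that it rose by 0.45 ± 0.05 on the log2 scale (95% interval 0.34 to 0.56, 1.37-fold), which ranked 11 of 14810 genes by p (edgeR adjusted p = 1.8e-04). The E9.5 means were 53.4 ± 0.909 and 62.6 ± 1.54 CPM (SD of 3 libraries each), a rise of 0.23 ± 0.05 (95% interval 0.12 to 0.34, 1.17-fold; edgeR adjusted p = 0.0253). The exact two-sided permutation p was 0.1 at each stage, the smallest that 3 libraries against 3 allow. Averaged over both stages the difference was 0.34 ± 0.04 (edgeR adjusted p = 5.3e-05). The effect was 0.22 ± 0.07 smaller at E9.5 on the log2 scale, and this difference between stages was not called (edgeR adjusted p = 0.360). Among all genes 0.432% were called higher and 0.155% lower at E9.0, 1.19% higher and 0.702% lower at E9.5, 2.96% in either direction in the average and 0.169% at both stages.

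The E9.0 call of Smndc1 held in all 10 alternatives and whichever of the 6 E9.0 libraries was left out, with adjusted p of at most 0.0182. The E9.5 call was lost without heterozygous replicate 2 (adjusted p = 0.0796), heterozygous replicate 3 (0.0836), homozygous replicate 2 (0.117) or homozygous replicate 3 (0.0978), while the log2 fold change stayed between 0.22 and 0.26. It was also lost with total counts only (0.22, adjusted p = 0.940) and without the filter on low counts (0.23, adjusted p = 0.0573).

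Smndc1 lies on the minus strand of chromosome 19, at chr19:53379390-53390578 in GRCm38 (mm10). GENCODE M21 lists 5 transcripts for it, 3 protein-coding and 2 subject to nonsense-mediated decay, which counts per gene do not separate. No other gene overlaps its exons, and 3.85% of its exonic 50-mers occur in another gene, Gm5871. Its level varied less within groups than that of any other member, with an SD of 0.0261 on the log2 scale, below the 0.0387 that counting alone gives at its depth. The stretch of 250 bases before its RefSeq start (GRCm38.p6, chr19:53390635-53390884, minus strand) is shown because Smndc1 is the 1 member that edgeR called between genotypes with the main settings. Capitals mark its single match to the GC box GGGCGG.

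Smndc1: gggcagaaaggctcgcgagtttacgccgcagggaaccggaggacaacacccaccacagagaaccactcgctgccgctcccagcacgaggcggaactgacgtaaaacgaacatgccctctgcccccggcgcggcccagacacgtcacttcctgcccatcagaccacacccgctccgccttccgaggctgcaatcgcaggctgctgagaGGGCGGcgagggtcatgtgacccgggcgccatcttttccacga

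**Figure D2:**
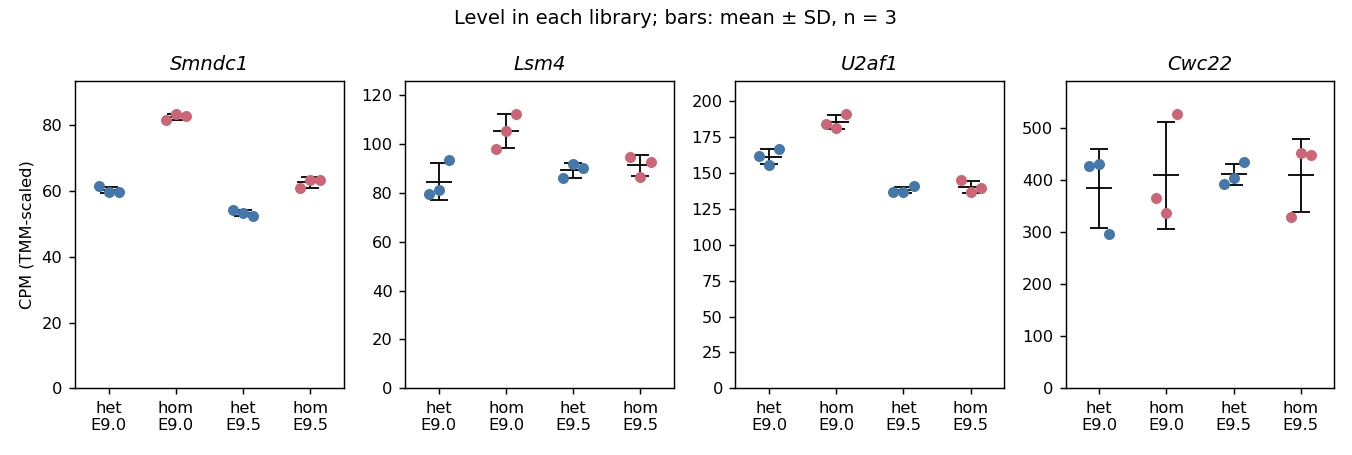
CPM of Smndc1, Lsm4, U2af1 and Cwc22 in each of the 12 libraries (points), with mean ± SD of the 3 libraries of each group (bars); het, heterozygous, hom, homozygous. The homozygous E9.0 libraries of Smndc1 sit between 81.4 and 83.4 CPM, above all heterozygous libraries, and the points of Cwc22 range from 296 to 526 CPM with no order by group.

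edgeR called none of the other 45 genes at either stage with the main settings. At E9.0 their median log2 fold change was 0.09, against -0.00 for all 14810 genes. In homozygous libraries 38 of the 45 were higher (84.4%, against 49.0% of all genes). Scaling by total counts alone moved the median of all 46 to 0.29 and that of all genes to 0.19, a shift that any change of scaling gives to all genes about alike. 11 of the 46 genes, Smndc1 included, had an unadjusted p under 0.05 (23.9%, against 13.3% of all genes), and 14 had all homozygous above all heterozygous libraries (9.07% of all genes). None had them all below (8.2% of all genes). At E9.5 the median of the 46 was 0.00, with 25 higher (54.3%, against 49.2% of all genes) and 21 lower. An unadjusted p under 0.05 was found there for 1 of 46 (2.17%, against 13.4% of all genes). The homozygous libraries were entirely above for 2, Snrpa and Smndc1 (11.4% of all genes), and entirely below for 1, Bcas2 (9.47% of all genes).

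Lsm4, a subunit of the ring on U6 RNA, came closest to the threshold at E9.0. It was at 79.3, 80.9 and 93.3 CPM in heterozygous and at 98.0, 105 and 112 CPM in homozygous E9.0 libraries. At E9.5 the values were 85.8, 91.8 and 89.9 CPM against 94.7, 86.2 and 92.5 CPM. The groups were separate at E9.0 and overlapped at E9.5. The E9.0 difference was 0.31 ± 0.07 (edgeR adjusted p = 0.0576) and the E9.5 difference 0.03. The E9.0 difference was called with upper-quartile factors (0.34, adjusted p = 0.0399), with total counts without Rn45s (0.34, adjusted p = 0.0434), without the filter (0.29, adjusted p = 0.0455), with DESeq2 (0.32, adjusted p = 0.00804) and when heterozygous E9.0 replicate 3 was left out (0.39, adjusted p = 0.0192). It was 0.20 after correction for GC content and length (adjusted p = 0.171) and 0.26 without homozygous replicate 3 (adjusted p = 0.246).

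U2af1, the U2AF subunit that recognises the AG at the 3′ splice site, was at 162, 156 and 166 CPM in heterozygous and 184, 181 and 191 CPM in homozygous E9.0 libraries. Its groups did not overlap at E9.0, with a difference of 0.20 ± 0.05 (edgeR adjusted p = 0.110), and did at E9.5 (137, 137 and 141 against 145, 137 and 139.7 CPM). Snrpd2, which pairs with Snrpd1 in the Sm ring, was at 137, 133 and 146 CPM against 157, 163 and 168 CPM at E9.0. This was a difference of 0.23 ± 0.06 (edgeR adjusted p = 0.110), with no overlap. At E9.5 Snrpd2 stood at 141, 139 and 136 CPM in heterozygous and 139.9, 126 and 125 CPM in homozygous libraries, where the groups overlapped. DESeq2 called U2af1 (adjusted p = 0.0101) and Snrpd2 (adjusted p = 0.0225) at E9.0. A correction for GC content and length called Sf3b1, the branch-site protein of the SF3b complex, at E9.0 (0.21, adjusted p = 0.0481).

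At E9.5 the members with the smallest p after Smndc1 were Bcas2, a Prp19 complex subunit, and Lsm7 of the U6 ring, both lower in homozygous libraries without being called. Bcas2 was at 97.5, 94.9 and 94.0 CPM in heterozygous and 90.7, 90.4 and 82.8 CPM in homozygous E9.5 libraries (-0.12 ± 0.06, edgeR adjusted p = 0.435). Leaving out 1 library moved this Bcas2 difference to between -0.14 and -0.075. At E9.0 its values were 83.3, 84.5 and 94.8 CPM against 97.5, 99.3 and 91.1 CPM, and there the homozygous libraries tended to be the higher ones. Lsm7 was at 38.3, 40.7 and 33.8 CPM against 36.7, 32.3 and 33.5 CPM at E9.5, with overlapping groups (-0.14 ± 0.08, edgeR adjusted p = 0.488). Leaving out 1 library moved this Lsm7 difference to between -0.20 and -0.075. At E9.0 it was at 38.1, 38.3 and 41.3 CPM against 41.6, 44.9 and 46.7 CPM, where all homozygous libraries were the higher ones (0.18 ± 0.08, edgeR adjusted p = 0.362).

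A genotype difference that changed with stage was called for 0 of the 46 genes by edgeR, against 0.0675% of all genes, and for 0 in each of the 9 alternatives, DESeq2 and limma-voom among them. At an unadjusted p under 0.05 there were 8 members (17.4%, against 8.6% of all genes), all 8 with a smaller or more negative value at E9.5. These were Snrpd2, Snrpg, Lsm4, Lsm7, Sf3b5, U2af1, Smndc1 and Bcas2. The smallest p belonged to Snrpd2 (-0.31 ± 0.08, edgeR adjusted p = 0.247). The median of the 46 was -0.10, against 0.0094 for all genes, and 39 were below 0 (84.8%, against 47.9% of all genes). With total counts only the medians were -0.29 and -0.19.

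By role, the median genotype difference at E9.0 ranged from 0.06 in the 2 second-step factors to 0.13 in the LSm ring, apart from Rnpc3 alone (-0.03). All 6 Sm, all 7 LSm and all 4 helicase genes (Dhx8, Dhx15, Dhx16 and Dhx38) had values above 0 at E9.0, as did 49.0% of all genes. With the main settings edgeR called none of these Sm, LSm and helicase genes. DESeq2 called Lsm4 and Snrpd2 among them (adjusted p = 0.00804 and 0.0225). The 95% interval of the difference lay within 1.3-fold in either direction for 42 of the 45 uncalled genes at E9.0 and for 44 of 45 at E9.5, and within 1.5-fold for all 45 at both stages. The widest interval was that of Cwc22, from 0.777-fold to 1.46-fold at E9.0.

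Cwc22, which links splicing to loading of the exon junction complex, was the most variable member. It was at 426, 429.5 and 296 CPM in heterozygous and 365, 335 and 526 CPM in homozygous E9.0 libraries. At E9.5 it was at 393, 404 and 433 CPM against 328, 451 and 447 CPM. High and low libraries occurred in both genotypes and at both stages. Its SD within groups was 0.27 on the log2 scale, against a median of 0.0774 for the members and 0.0158 from counting alone, and it exceeded that of 98.3% of the 2115 genes with at least 100 CPM. Of its exonic 50-mers 18.5% also occur in other genes, 11 in number, such as Gm13698 and Gm13693, and the part of that sharing in the spread was not tested.

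**Figure D3:**
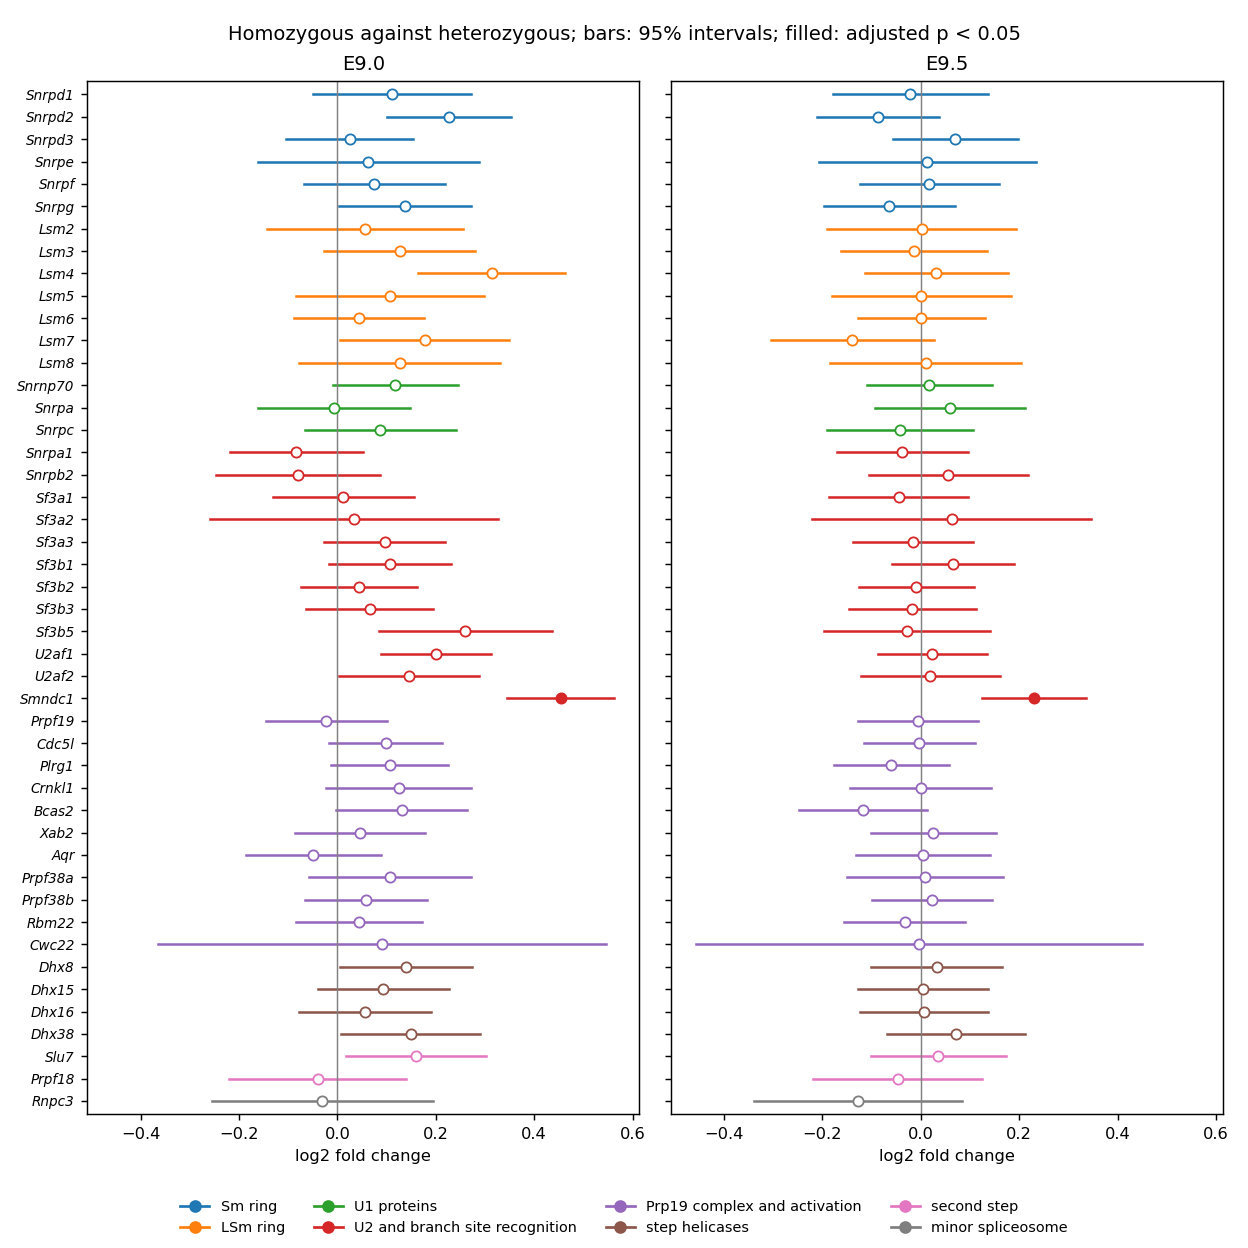
Log2 fold change of homozygous against heterozygous libraries at E9.0 (left) and E9.5 (right) for the 46 genes, by role group; bars are 95% intervals and filled points have an edgeR adjusted p under 0.05. Smndc1 is the only filled point in either panel, at 0.45 and 0.23, and most points at E9.0 lie above 0.

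Among neighbouring parts of the splicing machinery, listed with earlier results of these data known, edgeR with the main settings called genes between genotypes in the U5 and tri-snRNP list and none in the other 3. Apart from Eftud2, results of other tools for the genes of these lists are not given here. Of the 16 U5 and tri-snRNP genes, 3 rose at E9.0 (18.8%, against 0.432% of all genes), namely the tri-snRNP protein Prpf3 (0.56 ± 0.05, edgeR adjusted p = 3.6e-05), the U5 helicase Snrnp200 (0.37 ± 0.06, edgeR adjusted p = 0.0111) and the tri-snRNP recruitment factor Sart1 (0.28 ± 0.06, edgeR adjusted p = 0.0471). Eftud2 was the 1 that fell. At E9.5 edgeR called 0 of the 16 with the main settings. DESeq2 called Eftud2 lower there (-0.19, adjusted p = 0.0134), as did the fit after the GC and length correction (-0.20, adjusted p = 0.0182). An unadjusted p under 0.05 was found for 8 of the 16 at E9.0 and 4 at E9.5, against 13.3% and 13.4% of all genes. Of 45 further spliceosome proteins, 10 proteins of the minor spliceosome and 20 snRNP assembly factors, 0 were called by edgeR at either stage, and 10, 2 and 3 of them had an unadjusted p under 0.05 at E9.0. Median differences at E9.0 were 0.10 in the U5 list, 0.07 in the further spliceosome proteins, 0.18 in the minor spliceosome and 0.05 in the assembly list. The median of the 46 genes was 0.09, above 2 of these lists and below the other 2, and whether the lists differ was not tested.

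Marker levels of other cell types moved with genotype as well. At E9.0, 1 of 8 neural crest markers was lower in homozygous libraries and 0 of 8 endothelial and 0 of 9 neuronal markers were called. The sums of all 3 lists were nevertheless separate at E9.0, the endothelial ones at 259 to 277 CPM in heterozygous and 307 to 315 CPM in homozygous libraries, the neural crest ones at 376 to 394 and 313 to 348 CPM, and the neuronal ones, by little, at 81.0 to 83.7 and 79.3 to 80.7 CPM. At E9.5, 5 of 8 neural crest markers were lower, with overlapping sums of 227 to 288 CPM in heterozygous and 211 to 260 CPM in homozygous libraries. Of the endothelial markers 7 of 8 were higher, the sums being 168 to 236 CPM and 303 to 334 CPM. Of the neuronal markers 2 of 9 were lower at E9.5, with sums of 185 to 221 CPM and 149.7 to 160.4 CPM. Heart muscle markers had median log2 differences of 0.43 (E9.0) and 0.40 (E9.5); edgeR called 0 and 1 of the 6 higher, and the sums overlapped at both stages (64.3 to 222 against 109 to 329 CPM, then 1822 to 2480 against 2208 to 2932 CPM). Erythroid and neural progenitor markers had 0 called at either stage, with overlapping sums. Of 6 yolk sac endoderm markers 3 were tested and 0 called. No marker was at 0 counts in any library except in the yolk sac list, where up to 2 were. Their part in the Smndc1 difference was not tested.

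With stage the picture was broader: with TMM scaling, transcripts of many core spliceosome genes were less abundant at E9.5 than at E9.0. In heterozygous libraries 20 of 46 genes fell (43.5%, against 16% of all genes) and in homozygous libraries 30 of 46 (65.2%, against 15.8%), with 0 called as higher in either by edgeR with the main settings (19.2% and 19.6% of all genes). Values above 0 were found for 10 members in heterozygous and 3 in homozygous libraries (21.7% and 6.52%, against 51.2% and 51.8% of all genes). Bcas2 was called higher in heterozygous libraries without E9.0 replicate 3 (0.19, edgeR adjusted p = 0.0392). All E9.5 libraries lay below all E9.0 libraries for 23 genes in heterozygous and 33 in homozygous embryos (22.5% and 22.1% of all genes). The 20 were all among the 30 (lower in both comparisons: 10.2% of all genes), and 16 genes were called in neither. Median log2 differences were -0.13 and -0.21, against 0.01 for all genes in both genotypes. The largest falls averaged over genotypes were those of the Sm proteins Snrpd3, Snrpg and Snrpf, the SF3a subunit Sf3a2 and the U1 protein Snrnp70, and 28 of 46 genes fell in that average (60.9%, against 23.7% of all genes).

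The size of the falls depends on the scaling, as does their direction in heterozygous libraries and in the average. Over 11 alternatives the members' median ran from -0.14 to 0.23 in heterozygous and from -0.26 to -0.044 in homozygous libraries. In the average it ran from -0.19 to 0.092 over 9 alternatives. Rn45s took 6.05% to 37.4% of the counts in the 6 E9.0 libraries and 4.40% to 5.90% in the 6 E9.5 libraries. TMM factors were 0.664 to 1.05 at E9.0 and 1.09 to 1.11 at E9.5, so both separated the stages. What underlies this separation, and its part in the falls, was not tested. With total counts only, the median of all genes moved to 0.38 in heterozygous and 0.18 in homozygous libraries, 0 members were called lower in either, and 11 were called higher in heterozygous libraries. With total counts without Rn45s, 8 members were called lower and 1 higher (Bcas2) in heterozygous libraries, with a median of -0.031. The shares of all genes called with these scalings are not given here, so the counts cannot be read as particular to the members. With TMM scaling the members' median lay -0.14 and -0.23 from the median of all genes. A change of scaling moves all genes by about the same amount and so cannot test this distance. The falls below are given on the TMM scale. The summed level of the 46 genes was 7083 to 7872 CPM in the 6 E9.0 libraries and 6382 to 6743 CPM in the 6 E9.5 libraries.

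Several lists of cell type markers changed with stage too, in both directions. Erythroid markers (7 genes) summed to 537 to 1173 CPM at E9.0 and 2788 to 5197 CPM at E9.5, and heart muscle markers (6 genes) to 64.3 to 329 CPM and 1822 to 2932 CPM, all 7 and all 6 being called higher in both genotypes. Neuronal markers (9 genes) went from 79.3 to 83.7 CPM at E9.0 to 149.7 to 221 CPM at E9.5, and 9 of them were called higher in heterozygous and 7 in homozygous libraries. Neural crest markers went the other way, with 5 of 8 lower in each genotype and median log2 differences of -0.92 and -0.53. Their sums were 376 to 394 CPM at E9.0 and 227 to 288 CPM at E9.5 in heterozygous libraries, and 313 to 348 CPM and then 211 to 260 CPM in homozygous ones. Of the endothelial markers 5 of 8 were lower in heterozygous libraries (median -0.44), while in homozygous ones 2 were higher and 1 lower (median 0.06). Neural progenitor markers had medians of -0.12 and -0.03, with 1 of 6 lower in each genotype and 2 and 1 higher. A change in the mix of cells cannot be told apart here from a change within cells.

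Snrpd3, which pairs with Snrpb in the Sm ring, was at 119.9, 111 and 122 CPM in heterozygous E9.0 libraries and 88.4, 82.8 and 91.3 CPM at E9.5. In homozygous libraries it was at 121, 116 and 121 CPM and then at 97.4, 86.2 and 91.9 CPM. The stages were fully separate in both genotypes, and Snrpd3 fell by 0.42 ± 0.06 in heterozygous (edgeR adjusted p = 6.2e-05) and by 0.38 ± 0.06 in homozygous libraries (edgeR adjusted p = 1.6e-04) on the log2 scale. Snrpg, the smallest of the Sm proteins, was at 128, 126 and 133 CPM and then 109, 101 and 107 CPM in heterozygous libraries. In homozygous libraries it was at 134, 140.2 and 153 CPM and then 108, 95.9 and 99.3 CPM. It too was lower in every E9.5 library, and fell by 0.29 ± 0.06 (edgeR adjusted p = 0.00204) and by 0.49 ± 0.06 (edgeR adjusted p = 2.1e-05).

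Snrnp70, the U1-70K protein that contacts the first stem-loop of U1 RNA, was at 383, 357 and 393 CPM and then 301, 294 and 313 CPM in heterozygous libraries. The homozygous values were 384, 407 and 439 CPM at E9.0 and 312, 299 and 307 CPM at E9.5. Again no library of one stage reached those of the other, and Snrnp70 fell by 0.32 ± 0.06 (edgeR adjusted p = 6.1e-04) and by 0.42 ± 0.06 (edgeR adjusted p = 5.6e-05). Snrpf was at 97.1, 101 and 103 CPM and then 80.8, 78.7 and 81.9 CPM in heterozygous libraries, and at 99.8, 105 and 112 CPM and then 88.7, 73.3 and 82.3 CPM in homozygous ones. It fell in both (-0.32 ± 0.07 and -0.38 ± 0.07; edgeR adjusted p = 0.00163 and 4.3e-04), with the limit on its counts from the opposite strand given above.

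Sf3a2, a subunit of SF3a that helps the U2 snRNP to bind the branch site, was at 64.2, 49.9 and 41.5 CPM and then 36.0, 40.3 and 41.0 CPM in heterozygous libraries. In homozygous libraries it was at 55.4, 44.4 and 58.7 CPM and then 41.6, 39.5 and 41.5 CPM. The E9.0 libraries were scattered and the E9.5 libraries close together, with heterozygous E9.0 replicate 3 almost level with E9.5. Plekhj1 overlaps 16.1% of its exonic length on the opposite strand. Its falls (-0.40 ± 0.13 and -0.37 ± 0.13; edgeR adjusted p = 0.0330 and 0.0471) were the least firm of the 5. In heterozygous libraries the call was lost in 4 of 6 fits that left out 1 library, without replicate 1 or 2 of either stage, with -0.22 (adjusted p = 0.134) without E9.0 replicate 1. In homozygous libraries it was lost in 5 of 6, all but the fit without E9.0 replicate 2, with adjusted p up to 0.186 and -0.28 without E9.0 replicate 3. Of 11 other settings, 4 ended the heterozygous call, namely total counts only (0.0045, adjusted p = 0.979), total counts without Rn45s (-0.30, 0.0741), no filter (-0.38, 0.0752) and only the groups compared (-0.40, 0.0596). The homozygous call was lost in 5 of 11, with total counts only (-0.19, adjusted p = 0.324), total counts without Rn45s (-0.30, 0.0733), limma-voom (-0.35, 0.0520), no filter (-0.33, 0.118) and the replicate number as a block (-0.37, 0.0555).

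By role, the averaged stage contrast called 5 of 6 Sm genes, 3 of 7 LSm genes, 2 of 3 U1 genes, 10 of 12 U2 genes, 4 of 11 Prp19 genes (36.4%) and 4 of 4 step helicases as lower, against 23.7% of all genes. The 2 second-step factors, Slu7 and Prpf18, and the minor spliceosome gene Rnpc3 were not called. Within the Sm ring the exception was Snrpe (-0.04, edgeR adjusted p = 0.660). In the LSm ring those that fell were Lsm2, Lsm6 and Lsm7. In the U1 snRNP Snrpa, which binds a stem-loop of U1 RNA, fell by 0.30, and Snrpc, which helps to hold the 5′ splice site, was at 0.00 (edgeR adjusted p = 1.3e-04 and 0.982).

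In the U2 group all 3 SF3a subunits, 3 of the 4 listed SF3b subunits (Sf3b1, Sf3b2 and Sf3b3), both U2AF subunits, Snrpa1 and Smndc1 fell. Sf3b5 (-0.09, edgeR adjusted p = 0.213) and Snrpb2, the partner of Snrpa1 on U2 RNA (-0.02, edgeR adjusted p = 0.816), were not called. U2af1 fell by 0.22 ± 0.05 in heterozygous and by 0.40 ± 0.05 in homozygous libraries (edgeR adjusted p = 0.00341 and 2.5e-05), and Smndc1 by 0.18 ± 0.05 and 0.40 ± 0.05 (edgeR adjusted p = 0.0134 and 1.8e-05).

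Among the Prp19 and activation proteins, those that fell were Prpf19, the ubiquitin ligase at the centre of the complex, its partner Plrg1, the helicase-like intron-binding protein Aqr and Prpf38b. Cdc5l, Crnkl1, Bcas2, Xab2, Prpf38a, Rbm22 and Cwc22 were not called, with averaged values from -0.11 (Crnkl1) to 0.05 (Cwc22). The helicases Dhx8, which releases spliced mRNA, and Dhx38, which acts before the second step, fell by 0.34 and 0.29 in the average (edgeR adjusted p = 1.2e-05 and 7.9e-05). Dhx15, which takes the intron lariat particle apart, and Dhx16, which acts before the first step, fell by 0.17 and 0.18 (edgeR adjusted p = 0.00520 and 0.00276).

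The 10 genes called as lower in homozygous libraries but not in heterozygous ones were Snrpd1, Snrpd2, Lsm3, Lsm4, Lsm7, Sf3b3, Sf3b5, Plrg1, Dhx15 and Dhx16. Their stage change is not shown to differ between genotypes, since the interaction was called for 0 of them. Snrpd2, for example, stood at -0.00 in heterozygous and at -0.31 in homozygous libraries. In the U5 and tri-snRNP list 11 of 16 genes fell in the averaged stage contrast, in the further spliceosome proteins 27 of 45 (with 1 higher), in the minor spliceosome 2 of 10 and in snRNP assembly 9 of 20. Of all genes 23.7% were called lower in the same comparison.

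**Figure D4:**
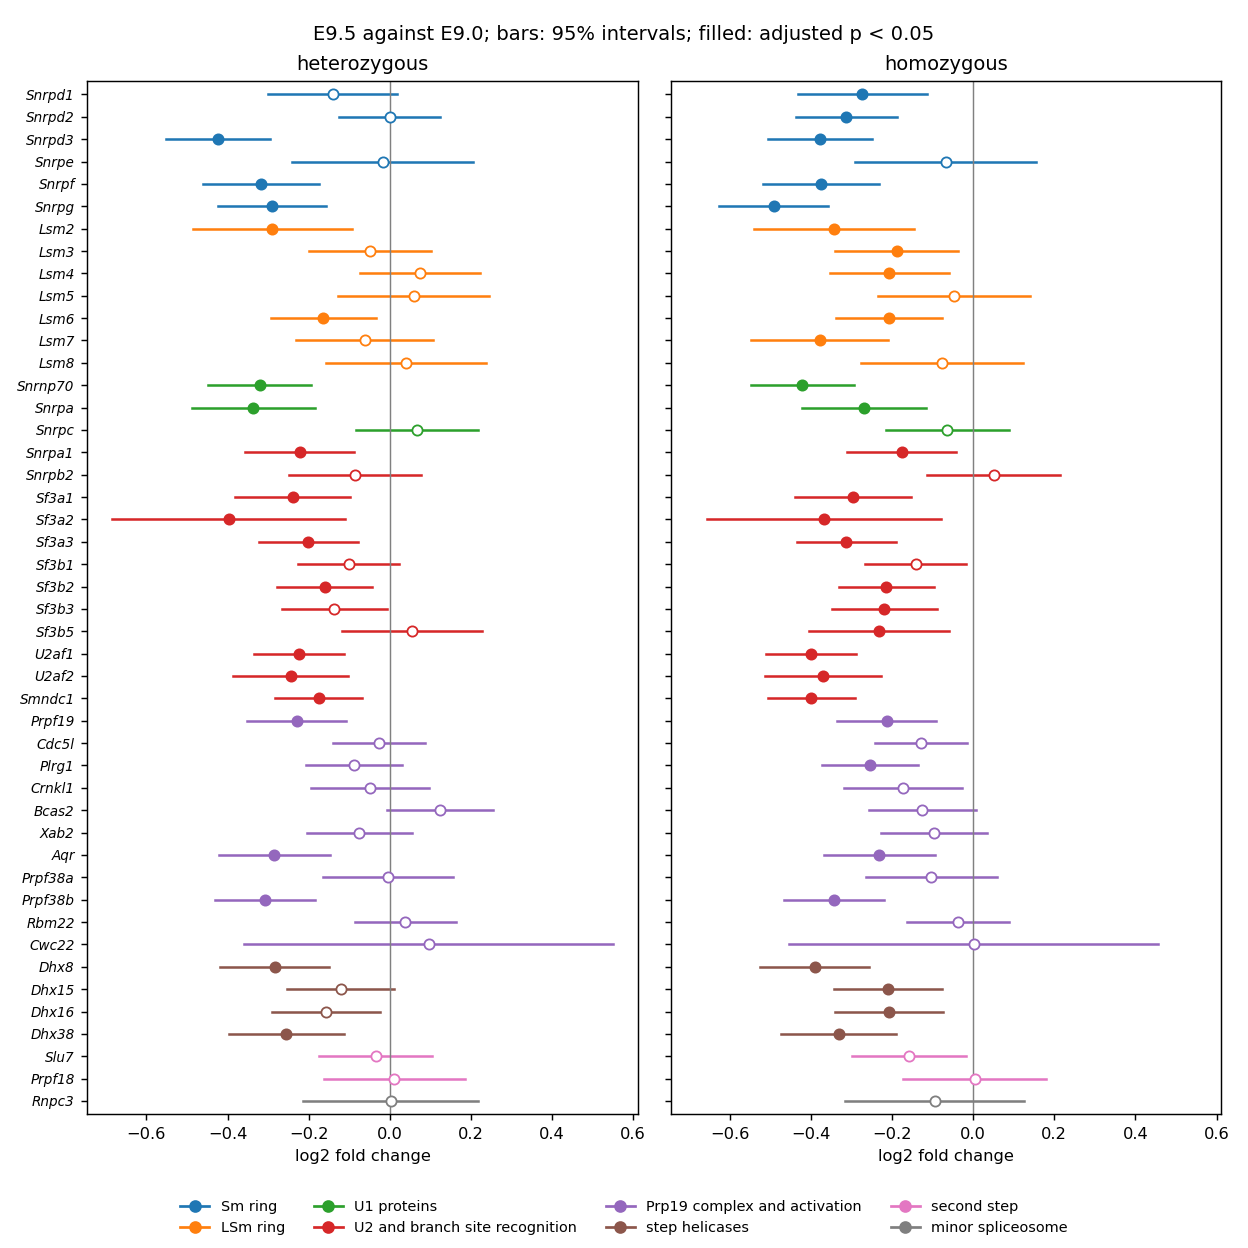
Log2 fold change of E9.5 against E9.0 in heterozygous (left) and homozygous (right) libraries for the 46 genes, by role group; bars are 95% intervals and filled points have an edgeR adjusted p under 0.05. All 20 filled points on the left and all 30 on the right lie below 0 with TMM scaling; with total counts only, 0 members were called lower in either.

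Because many members moved together with stage, their upstream sequences were searched for 5 motifs on both strands, over the 250 bases before the RefSeq start. Such windows were found for 38 of the 46 genes, but 26 of them hold exonic bases of a protein-coding gene in GENCODE M21, and for 10 the RefSeq start lies more than 100 bases from the gene's GENCODE start. The ETS-type motif CCGGAAG was in 13 of 38 (34.2%), against 13.0% of 11036 tested genes with a window and 7.11% of all 27025 windows. The CCAAT box (CCAAT) was in 16 (42.1%, against 36.2% and 34.5%) and the GC box (GGGCGG) in 22 (57.9%, against 60.0% and 33.1%). The E-box CACGTG was in 2 (5.26%, against 8.39% and 6.04%) and the TATA box (TATAAA) in 2 (5.26%, against 6.35% and 13.0%). No motif contains another, and a match describes the window only and does not show that a factor binds there. Of the 25 genes with a window that fell in the averaged contrast 9 held the ETS motif, and of the other 13 genes 4 did. Of the 13 windows with the motif 10 hold coding-gene exonic bases, and of the 12 windows without any such bases 3 hold the motif.

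Windows of 3 genes that fell with stage are shown for their ETS motif: the Prp19 ligase gene Prpf19 (GRCm38.p6, chr19:10894981-10895230, plus strand), the SF3b gene Sf3b2 (chr19:5295456-5295705, minus strand) and the helicase gene Dhx16 (chr17:35879528-35879777, plus strand). They are the members with that motif whose window holds no exon of a protein-coding gene. Capitals mark the ETS motif, the CCAAT box of Prpf19 and Sf3b2 and the GC box of Dhx16, which reads CCGCCC on this strand.

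Prpf19: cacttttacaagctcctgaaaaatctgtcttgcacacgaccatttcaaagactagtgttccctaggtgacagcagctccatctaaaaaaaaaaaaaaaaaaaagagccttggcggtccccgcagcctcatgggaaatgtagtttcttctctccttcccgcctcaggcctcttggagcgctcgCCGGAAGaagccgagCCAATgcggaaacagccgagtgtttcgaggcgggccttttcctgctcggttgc

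Sf3b2: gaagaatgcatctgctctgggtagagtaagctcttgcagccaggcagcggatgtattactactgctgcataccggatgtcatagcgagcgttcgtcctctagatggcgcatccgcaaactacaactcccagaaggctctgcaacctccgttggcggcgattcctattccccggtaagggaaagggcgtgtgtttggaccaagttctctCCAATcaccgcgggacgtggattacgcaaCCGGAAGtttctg

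Dhx16: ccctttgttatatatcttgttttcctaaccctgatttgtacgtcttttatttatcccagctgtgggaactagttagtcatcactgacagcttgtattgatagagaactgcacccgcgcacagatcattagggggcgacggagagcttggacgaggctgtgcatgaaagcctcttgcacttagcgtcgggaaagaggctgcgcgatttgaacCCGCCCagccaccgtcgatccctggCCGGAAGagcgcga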

How the data were processed

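The members, the role groups and the other gene lists were chosen with earlier results of these data known. The authors deposited 1 table of raw counts per gene, with 24421 rows and 12 library columns, all matched to samples. Per the submitters' processing notes, cutadapt, STAR, featureCounts and MultiQC were used with the mm10 build; neither their versions nor the annotation or strand setting is given in the sources used here.

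The analysis used edgeR 4.0.16 (R 4.3.3). After filterByExpr by group, 14810 genes were tested and 9611 rows left out, and TMM factors scaled the libraries. One model of 4 group means was fitted to all 12 libraries with robust dispersions (common biological coefficient of variation 8.77%) and tested with the quasi-likelihood F test, two-sided, with Benjamini-Hochberg adjustment over 14810 genes and a threshold of 0.05. The 7 contrasts were genotype at each stage and averaged, their interaction, and stage in each genotype and averaged. Exact permutation tests of CPM were added for single genes. RPKM used the union of exons in GENCODE M21 (GRCm38), in which all 46 members were matched by symbol; upstream sequences came from RefSeq GRCm38.p6. Replicates differed by more than counting noise (chi-square per degree of freedom 10.6 or more), so none was treated as a duplicate.

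Genes shown per library were those called between genotypes, the 3 with the smallest p in each genotype contrast and the interaction, the 5 largest falls with stage, and the extremes per length. Cwc22 was shown per library after its values were seen. The alternatives were RLE and upper-quartile factors, total counts with and without Rn45s, DESeq2 1.42.0, limma-voom (limma 3.58.1), no filter, the replicate number as a block, only the groups compared, and each library left out; a correction for GC content and length and a fit without erythroid and heart marker rows, which does not remove the RNA of those cells, were chosen after the data had been seen. The fold limits set beside the intervals (1.3 and 1.5) were chosen after the values had been seen, and a longer NRF1 motif, searched at first, is not reported here. Scripts were tested on simulated counts.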

Additional observations from a re-analysis of the deposited data

How the results depend on the processing

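Only Smndc1 was called by edgeR at E9.0 with the main settings; the count was 2 with upper-quartile factors, with total counts without Rn45s and without the filter (each adding Lsm4) and with the GC and length correction (adding Sf3b1), 4 with DESeq2 (adding Lsm4, U2af1 and Snrpd2), and 1 to 2 when 1 library was left out, 2 without heterozygous E9.0 replicate 3. At E9.5 the count of 1 became 0 with total counts only and without the filter, and ranged from 0 to 1 over left-out libraries. In the average it was 3 with DESeq2 (adding Lsm4 and U2af1), 2 with the GC and length correction (adding Sf3b1) and 1 to 2 over left-out libraries.

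Total counts only moved the members' median to 0.29 at E9.0, 0.13 in the genotype average, -0.29 in the interaction, 0.23 for stage in heterozygous, -0.044 in homozygous libraries and 0.092 in the stage average. It left 0 members called lower with stage in either genotype or the average, and 11 (heterozygous) and 6 (average) called higher. Snrpg (0.081), Sf3a2 (0.0045), Snrnp70 (0.053) and Snrpf (0.049) changed sign in heterozygous libraries. With total counts without Rn45s, stage in heterozygous libraries gave 8 members lower and 1 higher (Bcas2), with a median of -0.031; the medians were -0.15 in homozygous libraries and -0.096 in the average. In homozygous libraries the median was -0.17 without the filter and -0.26 with the GC and length correction. Leaving out 1 library gave 0 to 1 members higher and a median of -0.14 to -0.082 in heterozygous libraries. The members called lower ranged from 16 to 18 in heterozygous, 21 to 29 in homozygous libraries and 27 to 30 in the average. For the fits of this section the shares of all genes called are not given here. The counts therefore cannot be read as particular to the members. Beyond the scaling, the causes of these shifts were not tested.

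The replicate number as a block left Smndc1 at 0.45 (adjusted p = 9.6e-04) at E9.0 and 0.23 (0.0498) at E9.5, and gave 19 and 27 members lower with stage. Same-numbered libraries of the 2 genotypes correlated at 0.145, 0.0927 and 0.0150 at E9.0 and at 0.0524, 0.0413 and 0.0892 at E9.5. Differently numbered ones ran from -0.294 to 0.245 at E9.0 and from -0.146 to 0.0798 at E9.5. Each group was centred on its own mean, which ties these values to each other, so they cannot settle whether the numbers pair libraries. The main fit took no pairing.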
